A study of Homo sapiens with 24 samples.

Results

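The genes described here are 10 transcription factors and co-regulators that set B-cell identity: PAX5, EBF1, TCF3, TCF4, IKZF1, IKZF3, POU2F2, POU2AF1, FOXP1 and ID3. They were chosen as a list from knowledge of the B lineage, but with earlier results of these data known. Each was given every super-enhancer that overlapped its GENCODE version 44 gene body extended by 50 kb on each side. Of the 10 genes, 8 had at least 1 super-enhancer, and together they accounted for 16 of the 2615 super-enhancers in the table. Over all 19970 protein-coding genes, 6140 (30.7%) met the same rule.

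The study profiled H3K27ac, H3K4me1 and H3K4me3 by CUT&RUN in isogenic clones of OCI-Ly7, a line grown from human diffuse large B-cell lymphoma with a germinal center (GCB) profile. Its 24 samples made 12 groups of 2: each of the 3 marks in non-edited control clones (labelled WT), in clones with the CREBBP mutation R1446C (C_hom_KI), with a KMT2D knockout (K_hom_KO) and with both lesions (CK_hom_KI_KO). CREBBP is a histone acetyltransferase that deposits H3K27ac and KMT2D is a methyltransferase that deposits H3K4me1, and the study asked how their loss changes enhancers. The deposited table analysed here covers H3K27ac in WT alone, as 1 column in which both libraries were pooled, so the values below have no replicate error, no test was possible, and C, K and CK were not compared with WT. The labels do not say how many WT clones the pooled libraries came from, and 1 cell line stands for no other lymphoma or normal B cell.

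B-cell identity rests on a network of factors that bind each other's enhancers. The E proteins TCF3 and TCF4 start the program with EBF1, which opens B-lineage chromatin and activates PAX5, and PAX5 then holds cells in the lineage. Ikaros family factors, the octamer factor POU2F2 with its co-activator POU2AF1, and FOXP1 act with them in mature and germinal center B cells, while ID3 binds E proteins and keeps them off DNA. Super-enhancers, which are clusters of enhancer peaks with an unusually high summed H3K27ac signal, often lie at genes that define a cell type.

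As examples of motif matches in these regions, a stretch of sequence is given for each of 7 genes. A stitched region begins and ends with a peak window of fixed width, and each stretch is the middle of such an outer window as far as the deposited lengths show, read 5′ to 3′ on the minus strand, which is the coding strand of all 7 genes (hg38). Windows that overlapped an exon were not considered. Of the others the one with the most kinds of motif was taken for each gene, with ties going to the window nearest the gene start. The stretches were thus picked for their motifs, and the deposited signal is not resolved by window. In all, 17 of the 32 outer windows of these genes' regions held a motif in their middle, beside 53.0% of all outer windows. Capitals mark matches, in either orientation, to 6 motifs known for these factor families: the octamer ATGCAAAT bound by POU2F2, the E-boxes CAGGTG and CAGCTG bound by E proteins, the core CCCNNGGG bound by EBF1, the forkhead motif TGTTTAC bound by FOXP1, and TGGGAA bound by Ikaros factors. Capitals longer than a motif mark overlapping matches, and an EBF core can share its GGG with an Ikaros match. A match shows that the letters are present, not that the factor bound there.
PAX5 intron, chr9:36996115-36996315: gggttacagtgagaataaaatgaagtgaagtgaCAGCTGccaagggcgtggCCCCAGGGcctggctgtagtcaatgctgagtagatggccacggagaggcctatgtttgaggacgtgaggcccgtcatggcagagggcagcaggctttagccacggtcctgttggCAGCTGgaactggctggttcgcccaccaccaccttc
EBF1 intron, chr5:158725222-158725422: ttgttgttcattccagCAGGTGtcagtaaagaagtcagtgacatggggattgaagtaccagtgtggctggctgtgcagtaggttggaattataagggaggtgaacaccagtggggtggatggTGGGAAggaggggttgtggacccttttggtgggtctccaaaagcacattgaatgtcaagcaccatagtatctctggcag
TCF3 upstream, chr19:1656985-1657185: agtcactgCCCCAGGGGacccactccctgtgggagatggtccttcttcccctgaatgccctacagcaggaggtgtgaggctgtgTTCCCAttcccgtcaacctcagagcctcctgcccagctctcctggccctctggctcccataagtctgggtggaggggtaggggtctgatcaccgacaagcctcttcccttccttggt
IKZF3 downstream, chr17:39755074-39755274: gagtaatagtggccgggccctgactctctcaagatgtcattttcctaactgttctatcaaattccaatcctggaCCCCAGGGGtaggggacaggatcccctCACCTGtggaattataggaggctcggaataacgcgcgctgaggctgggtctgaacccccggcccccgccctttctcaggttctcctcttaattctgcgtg
POU2F2, upstream of its MANE Select start, chr19:42137819-42138019: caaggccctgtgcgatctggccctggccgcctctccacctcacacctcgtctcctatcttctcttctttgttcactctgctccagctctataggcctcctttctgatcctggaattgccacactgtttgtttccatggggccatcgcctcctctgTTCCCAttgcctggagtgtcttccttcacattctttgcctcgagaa
POU2AF1, upstream of its MANE Select start, chr11:111389055-111389255: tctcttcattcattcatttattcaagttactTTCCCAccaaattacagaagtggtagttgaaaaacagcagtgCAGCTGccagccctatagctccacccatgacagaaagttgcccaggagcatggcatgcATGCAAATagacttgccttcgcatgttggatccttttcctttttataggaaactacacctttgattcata
FOXP1 intron, chr3:71057780-71057980: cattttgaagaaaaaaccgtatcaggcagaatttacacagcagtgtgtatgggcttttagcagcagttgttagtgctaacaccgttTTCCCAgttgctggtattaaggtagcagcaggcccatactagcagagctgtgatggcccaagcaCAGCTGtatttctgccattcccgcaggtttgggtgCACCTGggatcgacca
The PAX5 stretch held CAGCTG at 2 places and the EBF core at 1. The POU2AF1 stretch held a full octamer, the sequence its own protein helps to activate. The 2 outer windows of the IKZF1 region held none of the motifs in their middle, so no IKZF1 stretch is shown.

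The signal is the sum that the ROSE program gives to a stitched region, and rank 1 is the highest signal in the table. All 2615 regions were above the deposited cutoff of 10617, so a gene without a region may still carry H3K27ac that fell below it, or peaks close to a transcription start site, which were left out before stitching. Signals of the 16 regions ran from 10964 to 64674 with a median of 35209, beside a median of 19736 over all regions. Their stitched lengths ran from 12.1 to 200 kb (median 85.4 kb, all regions 60.7 kb) and they held 5 to 42 constituent peaks (median 21.5, all regions 16) by the deposited number, which was lower than the summed constituent length gives in 5 of the 16. The signal per bp, which is the signal divided by the stitched length, ran from 0.158 to 1.41 with a median of 0.415, beside 0.343. Of the 16 regions, 11 were above the median of all regions in signal, 11 in length, 11 in constituents and 12 in signal per bp, whereas 7 were above it in constituents per 10 kb (median 2.58, all regions 2.65). By their medians, though not each of them, the regions of these genes were thus longer and carried more peaks. The spacing of the peaks was close to that of the table as a whole. FOXP1 alone gave 5 of the 16 regions and so weighs on these medians.

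**Figure D1:**
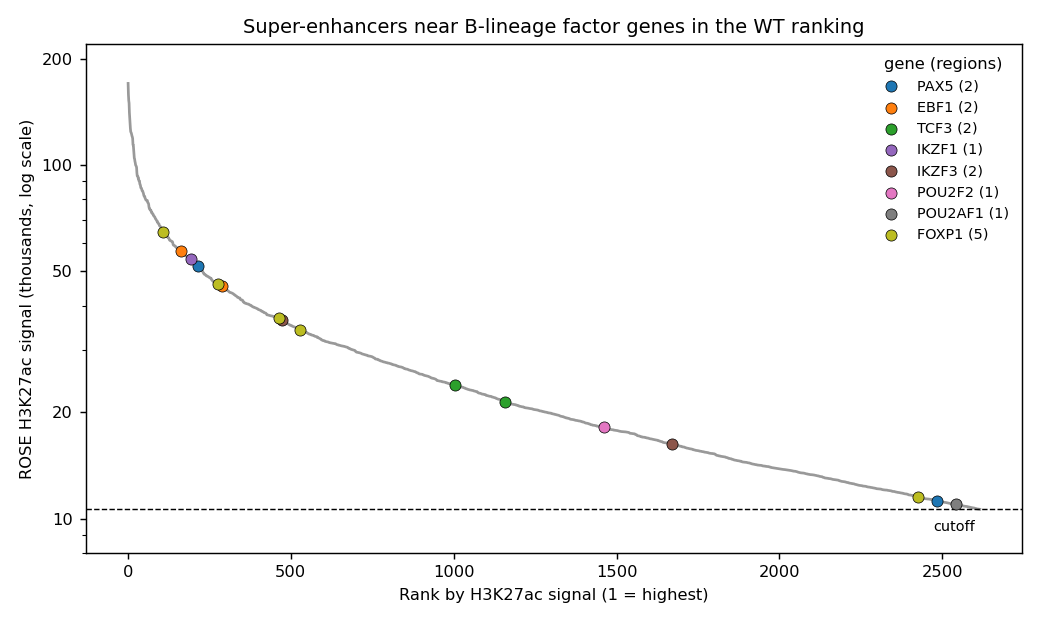
H3K27ac signal (axis in units of 1000, log scale) against rank for all 2615 WT super-enhancers (grey line), with the 16 regions near the B-lineage factor genes as points coloured by gene and the cutoff of 10617 as a dashed line. The points run from a FOXP1 region at rank 109 to the POU2AF1 region at rank 2541, and 3 of them lie within 1.1 times the cutoff.

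The regions fell along the whole ranking. Of the 16, 4 belonged to the 262 strongest regions of the table, 11 to the 1307 strongest, and 3 (in FOXP1, PAX5 and POU2AF1) had a signal within 1.1 times the cutoff, as did 8.41% of all regions. Taking the highest-ranked region of each gene, the 8 genes had a median rank of 344.5, beside 1183.5 for all 6140 genes with a region. That rank was among the top 262 for 4 of the 8 (FOXP1, EBF1, IKZF1 and PAX5), beside 11.7% of genes with a region. The 16 regions were 0.612% of the table and held 0.799% of its summed signal.

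Most of these genes are long, and a longer window can meet more regions. The median body of the 10 genes was 108.5 kb, beside 27.5 kb over all protein-coding genes, and 8 of the 10 bodies were 100 kb or longer. Of those 8, 7 had a region, beside 32.9% of all 3661 genes of that length. More than 1 region was found at 5 of the 8 genes, beside 23.9% of all genes with a region. The part of gene length in that was not tested.

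PAX5, the commitment factor of the lineage, had 2 regions (chromosome 9, 36833269 to 37034268, minus strand, ENSG00000196092.14). The stronger lay inside the gene at chr9:36875261-36996415, from 37.9 to 159 kb downstream of the gene start, and 99.1% of its bases were intronic. It ranked 216 with a signal of 51672, which was 4.87 times the cutoff, over 121 kb and 38 constituents. The weaker, at chr9:36820039-36861024, crossed the 3′ end of the gene and ranked 2483 with a signal of 11201, 1.06 times the cutoff. A gap of 14.2 kb separated them, close to the 12500 bp within which ROSE joins peaks, and together they covered 74.1% of the gene body. Most of the listed PAX5 signal thus lay in introns well inside the gene, and the 3′ region barely entered the table. Each PAX5 region also contained a microRNA hairpin by position, MIR4476 in the stronger and MIR4475 in the weaker.

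EBF1, the pioneer factor that acts with PAX5, was almost filled by 2 regions (chromosome 5, 158695920 to 159099916, minus strand, ENSG00000164330.18). The one nearer the start, chr5:158891231-159091311, reached from 8.61 to 209 kb into the gene, ranked 289 with a signal of 45518 and was the longest of the 16 at 200 kb, with 42 constituents. The one nearer the 3′ end, chr5:158725122-158876849, reached from 223 to 375 kb and ranked 162 with a signal of 57186 over 152 kb and 34 constituents. The signal was therefore denser in the 3′ part of the gene, at 0.377 per bp, than in the 5′ part, at 0.228 per bp, although no replicate stands behind that difference. Intronic bases made up 99.7% and 99.6% of them, and together they covered 87.1% of the body, the highest share of the 10 genes. They were 14.4 kb apart, and when regions up to 15 kb apart were joined the EBF1 region ranked 33 of 2435, with a signal of 102704 over 366 kb.

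**Figure D2:**
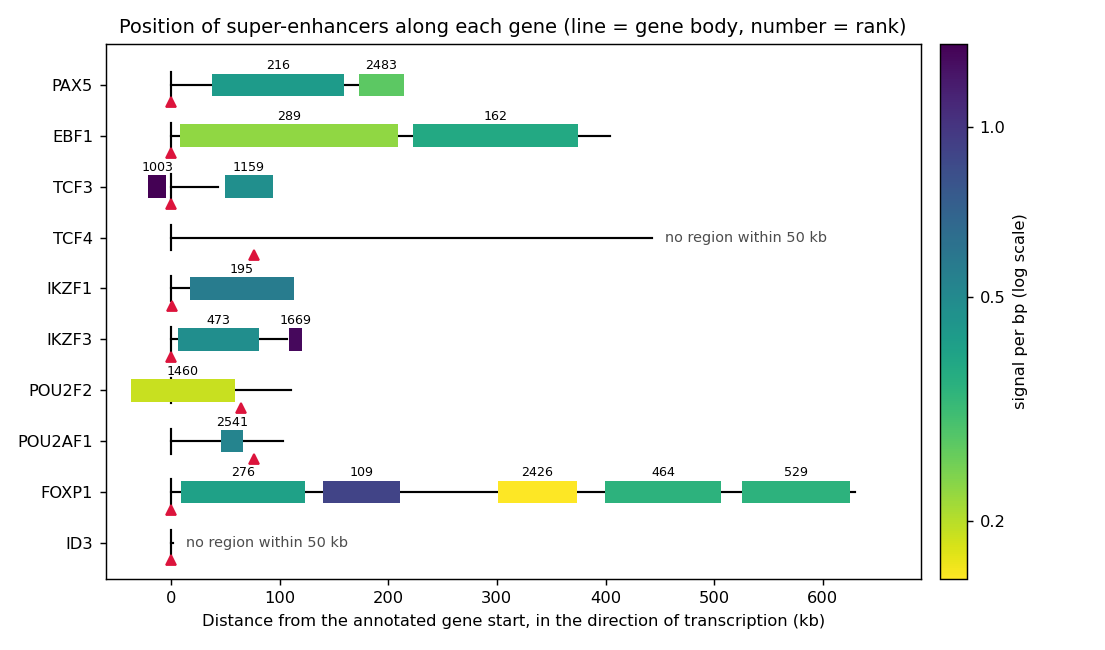
Super-enhancers of each gene as boxes against distance from the annotated gene start in the direction of transcription (kb), with the gene body as a line, the start of the MANE Select transcript as a red triangle, the rank above each box and the signal per bp as colour (log scale). EBF1 and FOXP1 are covered over most of their length, the TCF3 boxes lie on either side of the gene, and TCF4 and ID3 have none within 50 kb.

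TCF3, which encodes the E proteins E12 and E47, had 2 regions and neither touched the gene (chromosome 19, 1609291 to 1652615, minus strand, ENSG00000071564.19). The upstream region, chr19:1656885-1673863, began 4.27 kb before the gene start and ended 21.2 kb before it, wholly outside protein-coding genes. It ranked 1003 with a signal of 23861 and 6 constituents, but at 17.0 kb it had the highest signal per bp of the 16 at 1.41, which was rank 53 of 2615 on that scale. A region of that length needed at least 0.625 per bp to pass the cutoff, so a short region in the table is dense by construction. The signal of this region was 2.25 times the cutoff. The downstream region, chr19:1558614-1603306, ranked 1159 with a signal of 21363. It overlapped MEX3D, MBD3, UQCR11 and the read-through model ENSG00000267059, and had 7 protein-coding genes within 50 kb, so distance alone does not tie it to TCF3. Of the regions near TCF3, the upstream one had TCF3 as its nearest gene start.

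TCF4, another E protein that is also the lineage factor of plasmacytoid dendritic cells, had no region (chromosome 18, 55222185 to 55664787, ENSG00000196628.20). At 443 kb it was the second longest of the 10 genes, and yet the nearest region was 4032 kb away, over MEX3C (rank 1590, signal 16938). On the other side the nearest lay 4171 kb away over PMAIP1 (rank 894, signal 25665). The interval without any region that held TCF4 was 8.65 Mb long and contained 27 protein-coding genes. It was the 58th longest of 2592 such intervals, whose median was 216 kb, and 4.35% of protein-coding genes lay as far from a region or farther. Chromosome 18 held 29 regions in all, beside a median of 118 per chromosome. The lack of a listed region at TCF4 was thus shared by a wide stretch of the chromosome, and whether signal below the cutoff lay there was not analysed here.

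ID3, the inhibitor of E proteins that is often mutated in Burkitt lymphoma, also had none (chromosome 1, 23557926 to 23559501, ENSG00000117318.9). Here the distance was short: a region over TCEA3 and ASAP3 (chr1:23377864-23480983, rank 1589, signal 16942) ended 76.9 kb from the gene, and one outside protein-coding genes (rank 1779, signal 15371, 9 constituents) lay 82.4 kb away on the other side. Of all protein-coding genes, 64.1% lay as far from a region or farther. With the window widened to 100 kb ID3 gained both, and 9 of the 10 genes then had a region, beside 39.7% of all protein-coding genes. ID3 was therefore flanked by super-enhancers just outside the window, unlike TCF4.

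IKZF1, which encodes Ikaros, had 1 region (chromosome 7, 50304068 to 50405101, plus strand, ENSG00000185811.21). It lay at chr7:50321721-50417238, began 17.7 kb downstream of the gene start, and ran past the 3′ end, with 87.3% of its length in the gene. It ranked 195 with a signal of 54187, 29 constituents and a signal per bp of 0.567, and it covered 82.5% of the body. IKZF3, which encodes the related factor Aiolos, had 2 (chromosome 17, 39757718 to 39864312, minus strand, ENSG00000161405.17). The one inside the gene, chr17:39782905-39858241, lay 6.07 to 81.4 kb from the start, was 99.1% intronic and ranked 473 with a signal of 36335. The one beyond the 3′ end, chr17:39743276-39755374, overlapped GRB7, an adaptor of receptor tyrosine kinases, whose start was also the nearest. It was the shortest of the 16 at 12.1 kb, with 5 constituents and a signal of 16205, and at 1.34 per bp it was rank 62 by density, where a region of its length needed at least 0.878. For both Ikaros genes the main region began past the first few kb of the gene and covered most of the body. Peaks close to a start had been left out before stitching, which bears on where a region can begin.

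POU2F2, which encodes OCT2, had a long and sparse region (chromosome 19, 42086110 to 42196585, minus strand, ENSG00000028277.22). It lay at chr19:42137719-42233316, ranked 1460 with a signal of 18135 and 23 constituents over 95.6 kb, and its 0.190 per bp was rank 2379 of 2615. It took in the annotated gene start and ran on over DEDD2, ZNF526, GSK3A and the model ENSG00000288671, with 61.6% of its length in POU2F2. POU2AF1, which encodes the octamer co-activator OCA-B, had the weakest region of the 16 (chromosome 11, 111352255 to 111455630, minus strand, ENSG00000110777.12). It lay at chr11:111388955-111409959, ranked 2541 with a signal of 10964, which was 1.03 times the cutoff, and had 5 constituents over 21.0 kb. Although 95.2% of its bases counted as intronic, this rested on long transcript models. From the MANE Select start, where the reference transcript begins, it lay 9.68 to 30.7 kb upstream, and the POU2F2 region likewise lay 5.27 to 101 kb upstream of its MANE Select start. Both octamer genes thus had their region on the 5′ side of the reference transcript and in the lower part of the ranking.

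FOXP1, a forkhead factor that represses plasma cell differentiation, had 5 regions, all inside the gene (chromosome 3, 70954693 to 71583978, minus strand, ENSG00000114861.24). In the direction of transcription they lay 9.53 to 124 kb from the gene start (chr3:71460157-71574446, rank 276, signal 46093), 140 to 211 kb (chr3:71372734-71444300, rank 109, signal 64674), 301 to 374 kb (chr3:71210422-71283233, rank 2426, signal 11490), 400 to 506 kb (chr3:71077533-71184159, rank 464, signal 36882) and 526 to 625 kb (chr3:70959201-71058080, rank 529, signal 34084). The second of these was the strongest of the 16 and wholly intronic, with 0.904 per bp over 71.6 kb, and the middle one was the sparsest at 0.158 per bp over 72.8 kb. Within 1 gene, regions of nearly equal length therefore stood at 6.09 and 1.08 times the cutoff. The gaps between neighbours were 15.9, 89.5, 26.3 and 19.5 kb. The rank 276 region contained the hairpin of MIR1284 by position.

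Few genes had as many regions as FOXP1. Of the 19970, 5 had 5 or more: AUTS2 had 6, and FOXP1, MICAL3, RAD51B and ENSG00000285708, a model that overlaps FOXP1 and shares its regions, had 5 each. FOXP1 is 629 kb long, and its regions held 128 constituents over 464 kb, or 73.8% of the body. Their summed signal of 193222 was the 12th highest of all genes and exceeded the highest signal of any single region in the table, 170185. Divided by the length of the extended gene body the sum came to 0.265 per bp, which was place 1651. The part of gene length in the high sum was not tested.

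**Figure D3:**
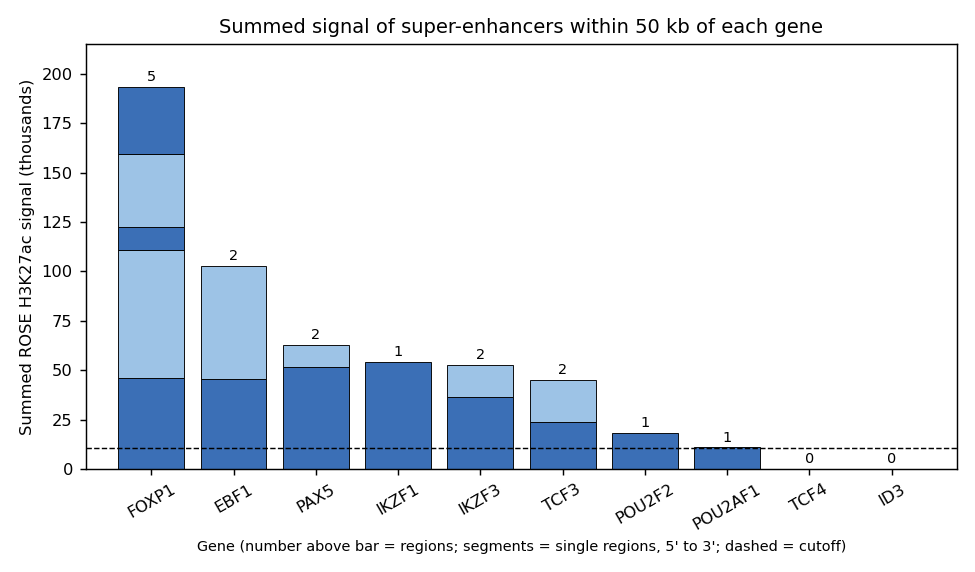
Summed H3K27ac signal (axis in units of 1000) of all super-enhancers within 50 kb of each gene, with the number of regions above each bar, single regions as segments in 5′ to 3′ order and the cutoff as a dashed line. FOXP1 reached 193222 from 5 regions and EBF1 102704 from 2, while POU2AF1 was at 10964 and TCF4 and ID3 had no region.

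By summed signal the order was FOXP1, EBF1 (102704), PAX5 (62873), IKZF1 (54187), IKZF3 (52540), TCF3 (45224), POU2F2 (18135) and POU2AF1 (10964). Divided by the length of the extended gene body the order changed, with TCF3 at 0.316 per bp, IKZF1 at 0.270, FOXP1 at 0.265, IKZF3 at 0.254, PAX5 at 0.209, EBF1 at 0.204, POU2F2 at 0.0862 and POU2AF1 at 0.0539. TCF3, the shortest of the 8 genes at 43.3 kb, moved to the top, and its sum includes the region over MEX3D and MBD3. POU2F2 and POU2AF1 were lowest on both scales. Whether neighbours in either order differ cannot be said without the single libraries.

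**Figure D4:**
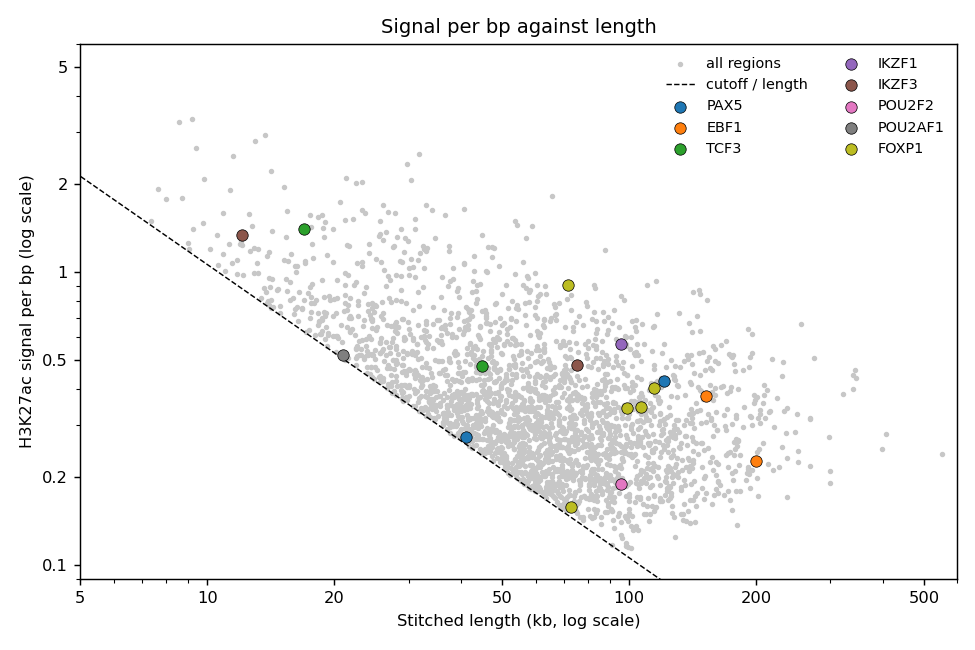
Signal per bp against stitched length (kb, both log scales) for all 2615 regions (grey) and the 16 regions near B-lineage factor genes (coloured by gene), with the dashed line where a region just reaches the cutoff. The TCF3 upstream region (17.0 kb) and the IKZF3 downstream region (12.1 kb) lie above 1 per bp, the POU2AF1 region and the weaker PAX5 region lie on the line, and both EBF1 regions are long.

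Of the 10 genes, 1 (POU2F2) had its annotated start inside a region, beside 7.81% of all protein-coding genes. The peak calls close to a start had been removed, but stitching can bridge a start, as it did there. Counting any annotated transcript start, 6 of the genes had at least 1 inside a region, beside 14.3% of all protein-coding genes: FOXP1 with 24 of 67 distinct starts, IKZF1 with 4 of 18, POU2F2 with 3 of 20, POU2AF1 with 3 of 10, EBF1 with 2 of 10 and PAX5 with 1 of 9. A gene with more starts or a longer body can be counted more easily, and the share of all genes was matched for neither. Of the 16 regions, 9 held a transcript start of their gene. None of the 18 TCF3 starts or the 5 IKZF3 starts was inside. The RefSeq table of gene starts matched 8 of the 10 genes, and by it FOXP1 had starts inside a region, 3 of 6, while the POU2F2 start lay outside.

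The outer windows of the regions were then read for the motifs of these factor families. The 16 regions gave 32 outer windows, and the whole table gave 5229. The octamer ATGCAAAT was present in 2 windows (6.25%), at POU2AF1 and at the rank 464 region of FOXP1, beside 2.43% of all outer windows. The E-box CAGGTG was present in 14 (43.8%), beside 42.5%, and CAGCTG in 11 (34.4%), beside 24.9%. The EBF core CCCNNGGG was present in 5 (15.6%), beside 16.0%, and the forkhead motif TGTTTAC in 1 (3.12%), beside 5.11%. The Ikaros motif TGGGAA was present in 14 (43.8%), beside 31.8%. At least 1 of the motifs was found in 24 windows (75%), beside 75.7% of all, so as a group these windows held the motifs about as often as those of other super-enhancers, and windows of 1 gene are not independent of each other.

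Whole regions differed more from each other, as matches per kb read against all 2615 regions. Constituent peaks made up 8.42% to 16.6% of the length of the 16 regions (median 11.2%, all regions 11.2%). Most of the bases read here therefore lay between peaks, and the counts describe the stitched regions and not their peaks. The POU2AF1 region had 5 octamers in 21.0 kb, or 0.238 per kb, which was percentile 99.8 (all-region median 0.0581), and its Ikaros motifs were at percentile 98.9 with 30 matches. The sites are given with the octamer in capitals and its flanks, on the minus strand, since POU2AF1 is the co-activator recruited at this sequence. The first and second sites below share the bases next to the octamer on both sides, and whether they arose independently was not tested.
chr11:111398634-111398681: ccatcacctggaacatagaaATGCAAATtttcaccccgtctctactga
chr11:111398423-111398470: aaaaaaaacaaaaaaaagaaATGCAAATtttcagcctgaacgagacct
chr11:111397207-111397254: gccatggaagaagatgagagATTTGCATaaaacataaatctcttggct
chr11:111393772-111393819: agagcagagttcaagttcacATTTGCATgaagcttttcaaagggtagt
chr11:111389097-111389144: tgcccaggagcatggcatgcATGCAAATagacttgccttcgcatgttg
All 5 sites lay in an intron of the long transcript models and upstream of the MANE Select start, and 3 read in the direction of the gene. The last site lay in an outer window, and whether the others lay in a peak is not known here.

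The TCF3 upstream region stood at the opposite end of the table for the Ikaros motif. It held 24 EBF cores (1.41 per kb, percentile 98.8) and 37 CAGGTG E-boxes (2.18 per kb, percentile 96.9), but 7 Ikaros motifs (0.412 per kb, percentile 0.612). The IKZF3 region over GRB7 held 16 EBF cores (1.32 per kb, percentile 98.4). Both regions were rich in G and C, at 56.0% and 56.6% beside a median of 45.7% for all regions, and the EBF core consists largely of these bases, and the part of GC content in these counts was not tested. The EBF1 regions were at 39.5% and 40.0%, with the EBF core at percentiles 6.92 and 33.4.

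For the Ikaros motif, the region in IKZF1 itself held 125 matches (1.31 per kb, percentile 96.2) and the stronger PAX5 region 161 (1.33 per kb, percentile 97.1). The forkhead motif in the 5 FOXP1 regions ranged from percentile 52.5, in the strongest region, to 97.3, with 30 matches, in the region nearest the gene start (0.262 per kb), and it was at 90.7 and 91.2 in the regions of ranks 529 and 464. These regions had 39.4% to 42.3% G and C, below the all-region median of 45.7%, and the forkhead motif consists largely of A and T. It was at percentiles 87.2 and 88.9 in the EBF1 regions, which had 39.5% and 40.0% G and C. The part of base content in these counts was not tested. Of the 16 regions, 10 were above the all-region median for the octamer, 10 for the forkhead motif, 8 for the EBF core, 8 for the Ikaros motif, 7 for CAGCTG and 5 for CAGGTG. All 5 FOXP1 regions were among those above it for the octamer and for the forkhead motif, and regions of 1 gene are not independent. For other genes' own families, the Ikaros motif was at percentiles 85.2 and 36.9 in the IKZF3 regions, the octamer at percentile 15.0 in the POU2F2 region, and the E-box CAGGTG at percentile 94.3 in the TCF3 downstream region.

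**Figure D5:**
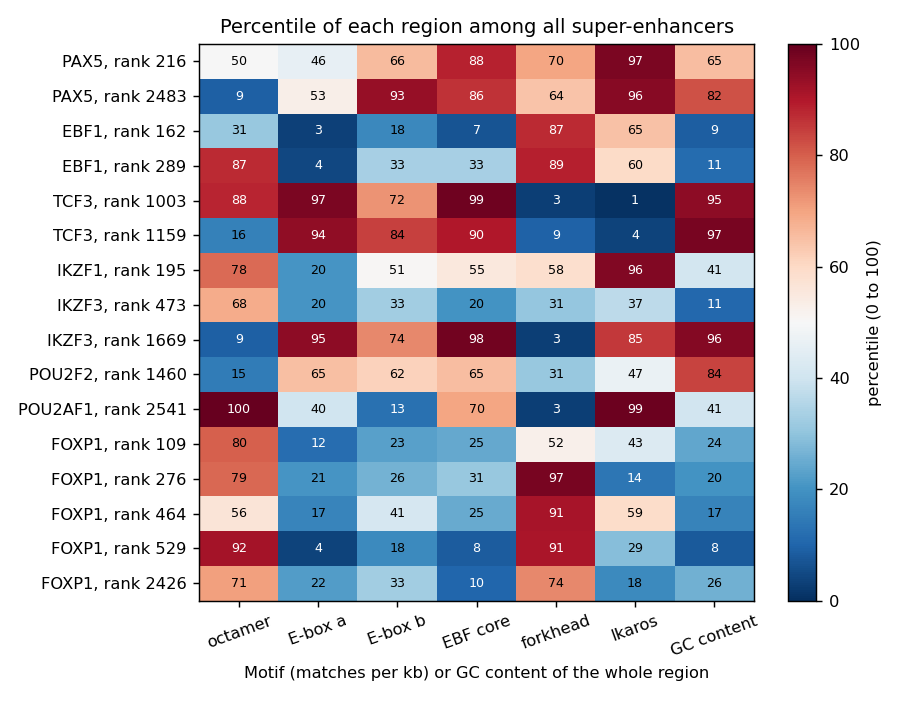
Percentile of each of the 16 regions among all 2615 for matches per kb of 6 motifs and for GC content, as colour and number (0 lowest, 100 highest, rounded), where E-box a is CAGGTG and E-box b is CAGCTG. The POU2AF1 region is at percentile 99.8 for the octamer, and the GC-rich regions near TCF3 and the IKZF3 region over GRB7 are high for the EBF core and E-box a and low for the forkhead motif.

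Relatives of these factors from the same families had fewer regions. Of 18 paralogs, 4 had a region within 50 kb, beside 30.7% of all genes: PAX8 (rank 1216, signal 20641), ID2 (rank 1387), POU2F1 (rank 1738) and ID1 (rank 2074). Their median best rank was 1562.5, beside 344.5 for the 8 B-lineage genes. Of 16 B-lineage genes that these factors are known to regulate, 9 had a region, beside the same 30.7%, with a median best rank of 418. The highest were CIITA, the activator of MHC class II genes (rank 50), CD79A, a signalling chain of the B-cell receptor (rank 159), and TNFRSF13C, the BAFF receptor (rank 247). Of 17 factors of other blood lineages, 5 had a region: LEF1, a Wnt pathway factor of T cells (rank 98), GATA2, a stem and mast cell factor (rank 163), TCF7 (rank 2308), CEBPB (rank 2332) and NFE2 (rank 2535). No gene of these lists shared a region with the 10 genes. The share for factors of other blood lineages was close to that of all genes, but LEF1 and GATA2 ranked with the strongest of the B-lineage genes. The regions of CD79A, GATA2 and TNFRSF13C lay outside the gene, at 23.8, 20.5 and 9.60 kb, so distance alone does not tie them to it.

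The label of the line was checked by marker genes with the same rule. A region was found for 7 of 10 germinal center B-cell markers, for 1 of 7 T-cell markers (LCK, with 3 regions, the highest at rank 1303) and for 1 of 6 myeloid markers (CSF1R, rank 2511), beside 30.7% of all genes. The defining T-cell genes CD3D, CD3E and CD3G and the myeloid genes LYZ and MPO had none.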

How the data were processed

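CUT&RUN for 3 histone marks was done in OCI-Ly7 clones of 4 genotypes with 2 replicates each. As the methods of the study state, the authors used the nf-core cutandrun pipeline (IgG of each genotype as control), promoter reads for scaling, and SEACR and MACS2 for peaks and their summits. The submitters' processing notes name hg38. The authors then applied ROSE to the WT H3K27ac data. Peaks close to a TSS were left out there, and TSS of non-coding RNA did not count. The deposited signal is the ROSE sum per stitched region, for both WT H3K27ac libraries combined into 1 column. Its scaling is not stated in the header, so it was used as a relative signal within the table. Per the file header, regions were stitched over 12500 bp and had to exceed 10617. The table gave no read counts, so the depth behind a value is unknown. Signal per bp was a multiple of 0.0001, which limits a signal of the 16 regions to 0.0317% of its value, and this covers rounding alone. The 22 other samples had no value and were not analysed here. The planned comparison of C, K and CK with WT was not run, as it needs per-sample values.

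The 10 genes, the gene lists and the motifs were chosen with earlier results of these data known, so no chance test was made and counts are set beside the same counts over all genes, regions or windows. All 10 genes were named with every region, along with protein-coding genes overlapped by a region and, from each list, the 3 genes with the highest-ranked region. Other genes named from a list, AUTS2, MICAL3, RAD51B, and the regions and motifs singled out in the text were picked after their values were seen. The values of 1 listed gene are not reported here. Genes came from GENCODE version 44, gene starts in the RefSeq promoter table and microRNA hairpins from RefSeq (GRCh38.p14), and sequence from hg38. Positions are 1-based. Outer windows were the first and last 401 bp of a region, since the summed constituent length was a multiple of 401 bp in 2609 of 2615 regions and in all 16 described here. That length held more windows than the deposited number of constituents in 1310 regions, 5 of them among the 16, and fewer in 0, for a reason the sources used here do not give, so a constituent may span more than 1 window. Motifs were searched on both strands. Alternatives were other windows around the gene, the 1307 strongest regions, ranking by signal per bp, other definitions of a start, and the central 201 bp of each window. Joining regions up to 15 or 25 kb apart and keeping genes of at least 100 kb were chosen after seeing the data. Software was pandas 2.3.3, numpy 2.4.6 and matplotlib 3.10.9 under Python 3.11.15. On simulated data, the overlap step and the motif step each recovered the planted answer in 100 of 100 sets.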

Additional observations from a re-analysis of the deposited data

How the results depend on the processing

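Of 36 alternative settings, 23 gave a count within 1.5 times the reported one or an equal value. In 13, a count changed by more than that, or a median or sum with no error to judge it by changed at all. The number of the 10 genes with a region stayed between 6, in the 1307 regions with the highest signal (16.8% of all genes), and 9, with a 100 kb window (39.7%). It was 7 for the gene body alone (17.3%). The median best rank of 344.5 was 216 for the gene body alone, which leaves out TCF3, 473 with a 100 kb window and 580.5 when ranked by signal per bp. It was 379 or 437 when regions up to 15 or 25 kb apart were joined, a choice made after seeing the data. Joining shortened the ranking to 2435 or 2157 regions. The median over all genes is not given here for these settings, so these ranks have no background beside them. The number of regions went from 11 to 20 over these settings. The summed signal of 539849 came to 539525 when each region counted by its share inside the window. The genes with a start inside a region went from 1 to 6 when any annotated transcript start counted. Windows with a motif went from 24 to 17 when the middle of each window alone was read, beside 53.0% of all windows. By RefSeq starts the count was again 1, but for FOXP1 in place of POU2F2. These settings differ by construction in which regions, starts or bases are counted or, for signal per bp, in the measure ranked. No paired analysis was possible because both WT libraries share 1 combined column, and the limma fit, replicate block and leave-one-out settings for C, K and CK against WT were not run for the same reason. The spread between replicates is not known here, and it bears most on the 3 regions within 1.1 times the cutoff, in PAX5, POU2AF1 and FOXP1.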
